A study of Mus musculus with 8 samples.

Results

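Txnip, thioredoxin and the related arrestin-domain genes were followed across the cell types of mouse skin, and between mice given PBMCsec or vehicle. The members were taken by symbol: Txnip, Txn1, Txnrd1, Arrdc3, Arrdc4 and Slc2a1, 6 of the 31053 genes listed for every library. All 6 were found in all 8 libraries. The mice were female BALB/c animals of 14 to 16 weeks, and the tissue was a biopsy of dorsal skin digested to single cells. PBMCsec is the culture supernatant of irradiated human blood mononuclear cells. Of the 8 libraries, 4 came from skin injected with PBMCsec and 4 from skin given vehicle, 1 library per sample. The methods of the paper read for these data describe scar tissue over an excised wound in both groups, a sort for viable cells, and controls given NaCl or medium. The labels mention no wound, and the title of the series names mast cells and basophils, so whether that description holds for these libraries is not certain. The labels give neither the time of sampling nor the control solution of a library, so libraries were grouped by treatment alone.

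Txnip belongs to the alpha-arrestins, adaptor proteins that bring membrane proteins to the machinery of endocytosis. It binds reduced thioredoxin and holds it inactive, and it lowers glucose uptake by drawing the glucose transporter Slc2a1 (GLUT1) off the cell surface. Arrdc3 and Arrdc4 have the same arrestin fold but lack the thioredoxin-binding cysteine of Txnip. Thioredoxin (Txn1) reduces disulphide bonds in other proteins, and thioredoxin reductase (Txnrd1) returns it to the reduced form with electrons from NADPH. Transcription of Txnip and Arrdc4 is known to be switched on by glucose, through the factors MondoA and ChREBP, which bind with their partner Mlx to carbohydrate response elements. In skin, glucose uptake through Slc2a1 is a known feature of the epidermis.

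In the mm10 annotation (GENCODE release M21) Txnip lies at chr3:96557957-96561883 on the plus strand and Arrdc4 at chr7:68736995-68749241 on the minus strand. Txn1 lies at chr4:57943373-57956411 (minus), Slc2a1 at chr4:119108711-119137983 (plus), Txnrd1 at chr10:82833951-82897712 (plus) and Arrdc3 at chr13:80883384-80896042 (plus). The counts are of reads assigned to these genes as a whole, so exons, introns and transcript isoforms are not told apart.

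The promoters of the 2 members known to answer to glucose are shown because the levels of these genes are compared below. Each line gives the 250 bases before the annotated start, from 5′ to 3′ on the strand of the gene (RefSeq, GRCm38.p6). The first lies at chr3:96557707-96557956 and the second at chr7:68749239-68749488. Capitals mark a pair of E-box-like sites in Txnip and a single E-box in Arrdc4.
Txnip: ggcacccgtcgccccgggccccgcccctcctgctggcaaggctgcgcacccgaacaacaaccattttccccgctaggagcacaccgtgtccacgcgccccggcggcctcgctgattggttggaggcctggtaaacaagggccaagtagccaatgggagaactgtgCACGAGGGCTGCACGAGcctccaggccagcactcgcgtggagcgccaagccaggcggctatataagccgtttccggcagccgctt
Arrdc4: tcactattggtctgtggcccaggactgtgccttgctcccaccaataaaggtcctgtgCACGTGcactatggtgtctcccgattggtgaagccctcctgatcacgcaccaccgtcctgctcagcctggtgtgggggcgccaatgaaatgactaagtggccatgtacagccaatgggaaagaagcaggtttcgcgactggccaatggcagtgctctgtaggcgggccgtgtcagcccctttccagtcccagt

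The pair was searched on both strands as CACGNG, any 5 bases and CACGNG again, the layout of a carbohydrate response element. It occurred in 15 of the 32851 promoters of the table (0.0457%), and Txnip was the single member among them. In Txnip it spans the bases from 85 to 69 before the start. The E-box CACGTG, which can overlap such a pair, occurred in 6.02% of promoters and, among the members, in Arrdc4 alone, from 193 to 188 bases before the start. A core of the antioxidant response element, TGACNNNGC, was held by 10.2% of promoters, among them those of Arrdc4 and Txnrd1. These are matches of letters and say nothing about binding in these cells.

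The libraries held 14753926 to 37880651 UMIs (molecules counted by their identifiers), in 26231 cell barcodes. Most barcodes exceeded the study's limit of 5% mitochondrial counts, and 6150 cells were kept, between 151 and 1659 per library. Per library, 9 to 37 barcodes also occurred in another library, and among kept cells 0 to 2 did. Clustering without the members gave 36 clusters, of which 31 were named from markers. They formed fibroblasts (FB, 1414 cells), keratinocytes (KC, 1118), hair follicle cells (HF, 1220), T cells and related lymphocytes (TC, 837) and dendritic cells with macrophages (DC/Mac, 518). Smaller classes were endothelial cells (EC, 83), neutrophils (118), melanocytes (64), smooth muscle cells and pericytes (39) and mast cells or basophils (27). A library entered a class with at least 10 of its cells. The vehicle libraries 1 and 2 were thin, with 28 and 20 FBs and 10 and 41 KCs, and PBMCsec library 2 held 19 KCs.

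Txnip was lowest in KCs and highest in endothelial cells. Levels are UMIs of a gene scaled to 1000000 UMIs of the summed cells of a class in a library (CPM). In KCs Txnip lay at 100, 148, 183 and 88.6 CPM in the PBMCsec libraries 1 to 4. It lay at 124, 96.7, 178 and 98.3 CPM in the vehicle libraries. The mean was 127 ± 37.9 CPM (SD, n = 8), and no KC value reached the lowest value of any other large class. FBs held 477 ± 130 CPM (n = 8), TCs 461 ± 88.4 (n = 8), HF cells 432 ± 158 (n = 7) and DC/Mac 336 ± 93.9 (n = 8). Endothelial cells held 1233 ± 413 CPM (n = 6), neutrophils 835 ± 311 (n = 4) and melanocytes 578 ± 328 (n = 4).

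The 5 large classes were compared pair by pair with edgeR, with the library as a block and adjustment over all genes of a pair. Cell classes differ in much of what they transcribe: between 37.3% (KC against HF) and 68.8% (FB against TC) of all genes passed in a pair. A pass is thus common, and the sizes carry more than the calls. Txnip in KCs was 3.59-fold lower than in FBs (log2 difference 1.84 ± 0.16 SE, adjusted p = 5.01e-08, 67.5% of genes called) and 2.75-fold lower than in HF cells (adjusted p = 3.18e-05, 37.3% called). It was 3.18-fold lower than in TCs (adjusted p = 3.31e-08, 64.2% called) and 2.66-fold lower than in DC/Mac (adjusted p = 1.29e-06, 59.9% called). KCs were the lower class in 8 of 8 libraries against FBs, TCs and DC/Mac (exact sign-flip test over libraries, two-sided, p = 0.00781, the smallest that 8 pairs allow).

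Among the other large classes Txnip varied less. It was 1.33-fold higher in FBs than in DC/Mac (adjusted p = 0.0274, 66.2% called), a call that was lost without vehicle library 4 (adjusted p = 0.104). FBs and TCs differed by 0.16 ± 0.15 on the log2 scale (adjusted p = 0.34), FBs and HF cells by 0.37 ± 0.19 (adjusted p = 0.103). Without PBMCsec library 3 the FB against HF difference was 0.53 and passed (adjusted p = 0.0267). TCs and DC/Mac differed by 0.28 ± 0.13 (adjusted p = 0.0833, 58.4% of genes called), which passed without PBMCsec library 1 (0.39, adjusted p = 0.0155). In the order of levels, neighbouring classes were also compared by the exact sign-flip test. None of the 39 neighbouring pairs over the 6 genes passed after adjustment (smallest adjusted p = 0.305). The smallest sign-flip p that 8 libraries allow, 0.00781, adjusts to 0.305 for a single pair, so no pair could pass alone. Txnip in DC/Mac against KCs was at that p, higher in 8 of 8 libraries by 1.38 on the log2 scale. For Txnip in endothelial cells against neutrophils, 3 shared libraries cannot give a p below 0.25.

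**Figure D1:**
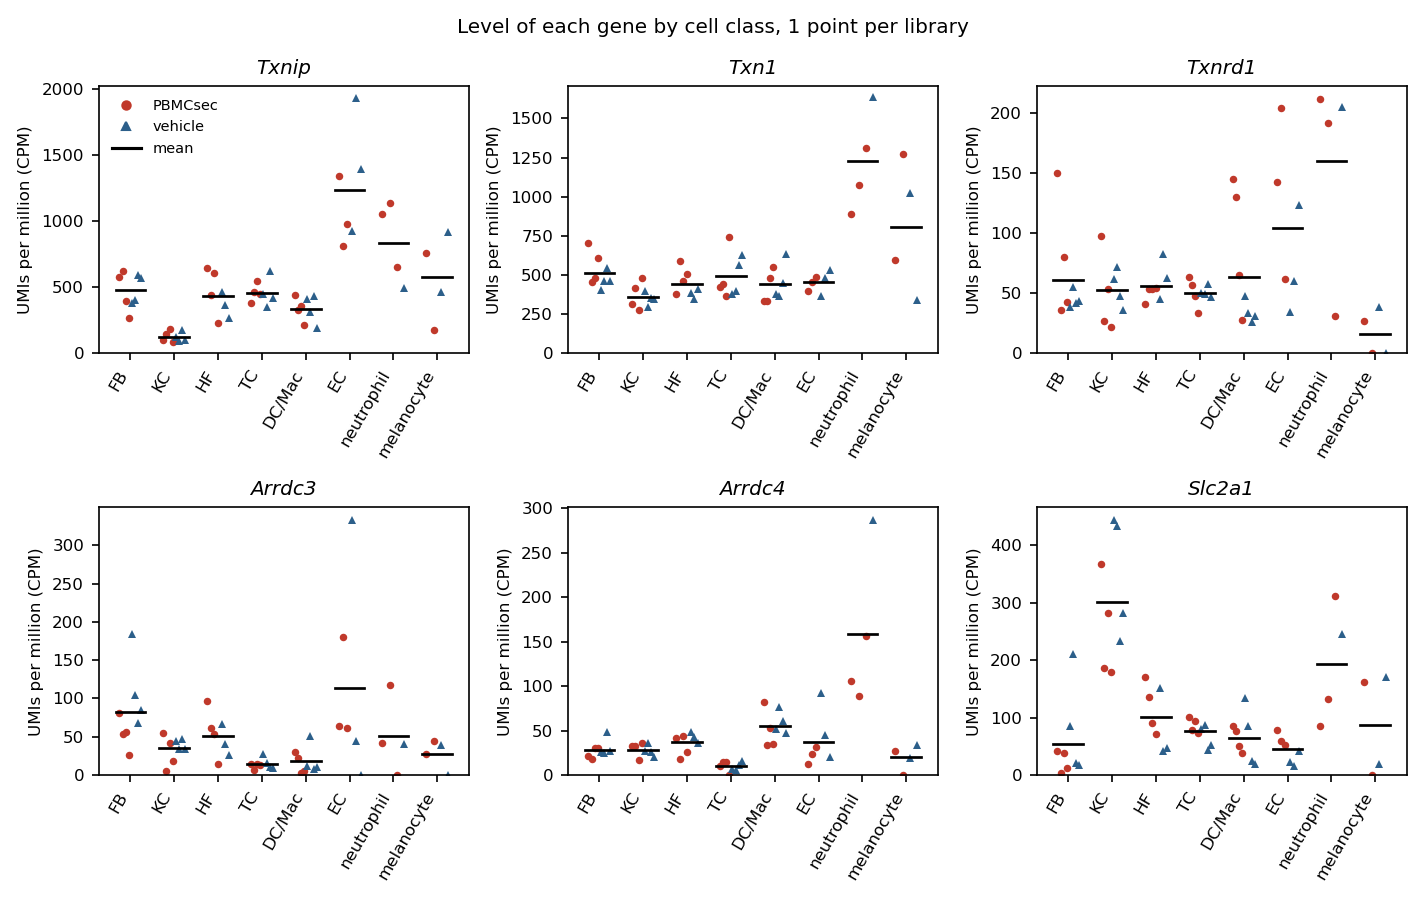
CPM of each gene (vertical axes, linear, each with its own scale) in 8 cell classes (horizontal axes). Each point is 1 library, red circles for PBMCsec and blue triangles for vehicle, and the line is the mean. Among the classes Txnip has its lowest mean in KC (127 CPM) and Slc2a1 its highest there (301 CPM).

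Slc2a1, in contrast, was highest in KCs, and lowest in FBs, among the large classes. KCs held 367, 186, 283 and 180 CPM in the PBMCsec libraries 1 to 4. They held 444, 434, 233 and 282 CPM in the vehicle libraries. The mean of 301 ± 104 CPM (n = 8) stood against 101 ± 51.8 in HF cells, 76.1 ± 19.4 in TCs, 64.1 ± 38.9 in DC/Mac and 53.7 ± 68 in FBs. Slc2a1 in KCs was 9.1-fold higher than in FBs (adjusted p = 1.00e-07), 5.05-fold higher than in DC/Mac (adjusted p = 4.51e-07), 4.45-fold higher than in TCs (adjusted p = 7.34e-08) and 3.72-fold higher than in HF cells (adjusted p = 3.22e-05), all by edgeR. Neutrophils, at 194 ± 104 CPM (n = 4), came next after KCs. In FBs the spread between libraries exceeded the mean. FBs were also below HF cells 2.58-fold (adjusted p = 0.00508, 63.9% of genes called), TCs 1.97-fold (adjusted p = 0.0162) and DC/Mac 1.72-fold (adjusted p = 0.0392). The TC call was lost without PBMCsec library 4 (adjusted p = 0.064), and the DC/Mac call without any 1 of PBMCsec libraries 1 to 4 and vehicle libraries 1 and 3 (adjusted p from 0.0543 to 0.12).

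In single cells too, Slc2a1 was found most often in KCs and least often in FBs, among the large classes. Of KCs 68.1% (exact 95% interval 65.2 to 70.8) held a Slc2a1 UMI, of FBs 16.7% (14.8 to 18.7) and of TCs 20.5% (17.9 to 23.4). Median depths were 10749, 9108 and 3365 UMIs per cell. After thinning every cell to 1000 UMIs, the shares were 18.9%, 2.51% and 6.14%. The lymphatic endothelial cluster, marked by Ccl21a and Mmrn1, held it in 4.08% of 49 cells at a median of 7102 UMIs, which gives a level for cells poor in the gene. For Txnip, 51.4% of KCs (48.5 to 54.4) had a UMI against 81.5% of FBs (79.4 to 83.5), and 12.6% against 34.3% after thinning. Intervals cover counting error only.

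Within KCs, the cluster with the least Txnip was the one with the most Slc2a1. It held 221 cells and was led by Serpinb2 and Fosl1, with Krt16, a keratin of activated epidermis, among its top genes. Txnip there lay at 58.1, 21.9 and 16.3 CPM in the PBMCsec libraries 1, 3 and 4. It lay at 37, 70.9 and 12.2 CPM in the vehicle libraries 2, 3 and 4. The mean was 36.1 ± 23.9 CPM (n = 6), and 20.4% of the cells had a UMI. Slc2a1 in the same libraries lay at 484, 520 and 516 CPM after PBMCsec. It lay at 621, 496 and 447 CPM after vehicle, with a UMI in 92.8% of the cells. Among the KC clusters with at least 10 cells in a library, Slc2a1 was highest in this one in 6 of 6 libraries and Txnip lowest in 5 of 6. The exception was PBMCsec library 1, where the Krt1 and Krt10 cluster was lower (52.7 CPM).

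The other KC clusters differed from one another as well. The cluster with Krt14 among its top genes, a keratin of basal cells, held Txnip at 177 ± 78.8 CPM and Slc2a1 at 332 ± 62.3 (n = 6 libraries). The Krt1 and Krt10 cluster, keratins of differentiating cells, held 105 ± 55.4 and 192 ± 51 CPM (n = 5). The cycling cluster, led by Cenpf and Mki67, held 247 ± 79.5 and 195 ± 83.1 CPM (n = 5). The cluster led by Pthlh and Kalrn held 111 ± 29.4 CPM of Txnip and only 23.2 ± 9.48 CPM of Slc2a1 (n = 5). Low Txnip thus did not always go with high Slc2a1 among the clusters named KC. This cluster was named from Dsp, Dsc3, Lgals7, Dsg3 and Trp63, without Krt5, Krt14, Krt1 or Krt10. It also carried the HF markers Krt17, Sox9 and Lhx2, so follicle cells may be among its cells. The clusters were picked out after their values were seen and were not tested.

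Txnip varied inside the other classes too. In HF cells it lay at 104 ± 73.4 CPM in the inner root sheath cluster (Krt25, Krt71; n = 5) and at 596 ± 194 in the cluster led by Sostdc1 and Ccl27a (n = 6). Slc2a1 was low in the first, 26.3 ± 37.5 CPM, and at 172 ± 35.8 in the second. Among the 7 FB clusters Txnip ranged from 349 ± 86.2 to 679 ± 170 CPM, except in the one led by the chemokine Ccl2 and the pentraxin Ptx3, with Il6 and Ptgs2, where it was 167 ± 140 (n = 5). Among TC clusters the one with Ctla4 and Icos held 337 ± 102 CPM of Txnip and 144 ± 62 of Slc2a1, and the one led by Ms4a4b and Trac 566 ± 97.9 and 38.8 ± 27.3 (n = 8 each).

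**Figure D2:**
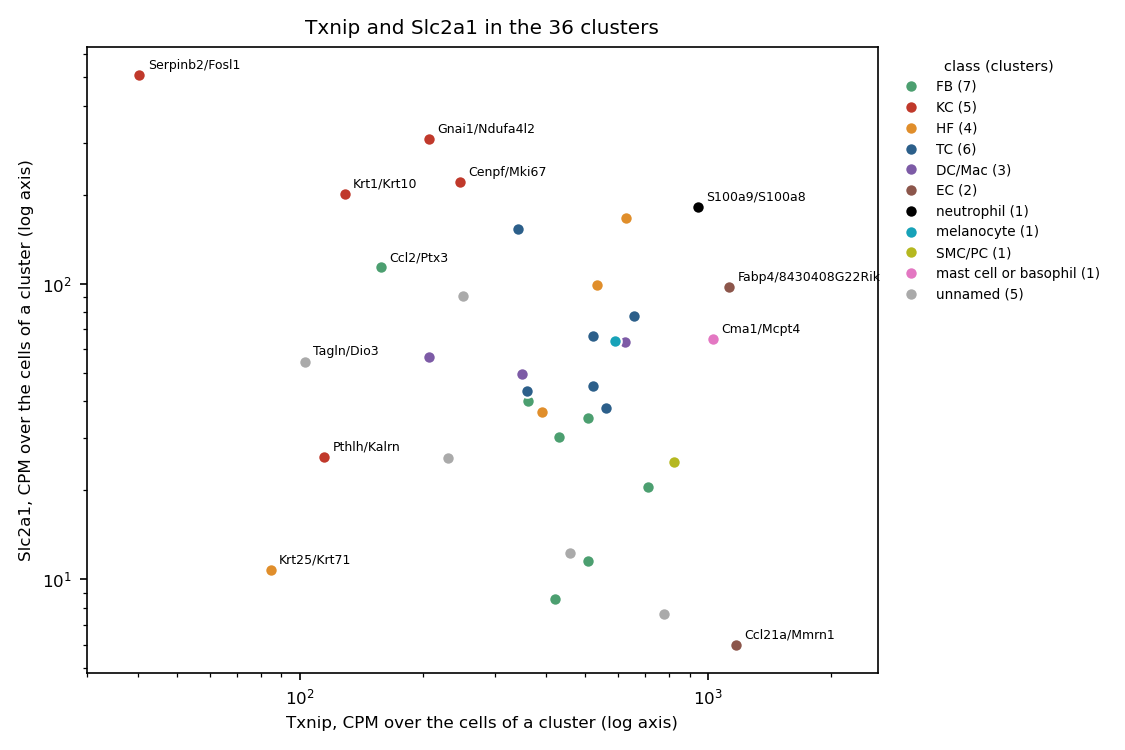
Txnip (horizontal, log axis) against Slc2a1 (vertical, log axis) in CPM over all cells of each of 36 clusters, coloured by class. The Serpinb2/Fosl1 KC cluster stands alone at the upper left, with 40.4 CPM of Txnip and 507 of Slc2a1, and the clusters as a whole do not fall on a line.

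Over all 36 clusters the log2 levels of Txnip and Slc2a1 had a Pearson r of -0.3 and a Spearman rho of -0.19, and over 54 sums of a class in a library r was -0.29. Txnip and Arrdc4, whose promoters are shown above, had r = 0.07 over the 54 sums, and Txnip and Txn1 0.25. Arrdc4 was low, with 0 UMIs in the TCs of PBMCsec library 4 for example, so counting noise weighs on its r. The points share libraries and cells of like type, and no p is attached. The 5 genes most like Txnip over the 54 sums, among 3390 genes with a mean of at least 50 CPM, were Gbp7 (r = 0.7), Nck1 (0.7), Cflar (0.69), Pttg1ip (0.69) and Nudt4 (0.68). By Spearman correlation 3 of the 5 stayed among the first 5. The single gene most like each other member was Gabarap for Txn1 (r = 0.72), Ranbp2 for Txnrd1 (0.79), Twf1 for Arrdc3 (0.66) and Midn for Slc2a1 (0.75). Arrdc4 was below the minimum level for this comparison.

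The other alpha-arrestins, Arrdc3 and Arrdc4, had distributions of their own. Arrdc3 was higher in FBs than in the other large classes. It lay at 82.2 ± 47.3 CPM in FBs, 51.3 ± 27.3 in HF cells and 35 ± 16.2 in KCs, against 17.7 ± 16.1 in DC/Mac and 13.9 ± 5.91 in TCs. FBs held 6.19-fold more than TCs (edgeR adjusted p = 9.64e-10) and 4.9-fold more than DC/Mac (adjusted p = 2.02e-06), with the lowest FB library near the highest TC library, 25.9 against 26.8 CPM. The difference from KCs was 1.76-fold (adjusted p = 0.00201). Endothelial cells held 114 ± 123 CPM (n = 6), from 0 to 333, and neutrophils 50.3 ± 49.2 (n = 4), from 14 UMIs. FBs were 1.56-fold above HF cells (adjusted p = 0.0215), a call lost without vehicle library 3 or 4 (adjusted p = 0.0688 and 0.0621). Only 45 UMIs in 837 TCs and 53 in 518 DC/Mac stand behind the low values. Among FB clusters Arrdc3 was 104 ± 46.6 CPM in the one led by Sfrp2 and Sfrp4 (n = 6).

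Arrdc4 was highest among the large classes in DC/Mac, at 54.8 ± 17.6 CPM (n = 8). Its values there were 82.2, 34.1, 52.4 and 34.4 CPM in the PBMCsec libraries 1 to 4. They were 51.6, 76.4, 60.4 and 47.3 CPM in the vehicle libraries. HF cells held 36.8 ± 11 CPM, FBs 28.2 ± 9.29, KCs 28.2 ± 7.22 and TCs 9.81 ± 5.26. DC/Mac exceeded TCs 5.87-fold (adjusted p = 4.28e-07), KCs 2.11-fold (adjusted p = 0.000416), FBs 1.98-fold (adjusted p = 0.000343) and HF cells 1.77-fold (adjusted p = 0.000216, 60.5% of genes called), all by edgeR. Within DC/Mac the cluster led by Cd207, a marker of Langerhans cells, carried most of it. It held 130 ± 65.5 CPM and a UMI in 54.8% of 124 cells (n = 5). An unnamed cluster led by Krt6a and Rnase12 came close, with 87.2 ± 28.3 CPM (n = 4) and a UMI in 53.3% of 212 cells. The KC cluster led by Pthlh and Kalrn held 65.4 ± 36.3 CPM (n = 5) and a UMI in 41.4% of 191 cells. Neutrophils held 159 ± 89.7 CPM (n = 4), from 27 UMIs in all.

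Txn1 was present in every class, and its levels lay close together. FBs held 516 ± 98.5 CPM, TCs between 365 and 744, DC/Mac 443 ± 109, HF cells 442 ± 86.3 and KCs 363 ± 68.6. FBs exceeded KCs 1.38-fold (edgeR adjusted p = 0.0055), a call lost without PBMCsec library 3 (adjusted p = 0.0544). They exceeded HF cells 1.34-fold (adjusted p = 0.0243), which was lost without PBMCsec library 1 (adjusted p = 0.067) or vehicle library 3 (adjusted p = 0.0932). Neutrophils, at 1228 ± 323 CPM (n = 4), melanocytes, at 808 ± 419 (n = 4), and the cycling KC cluster, at 863 ± 190 CPM (n = 5), lay higher. Txnrd1 did not pass in any of the 10 pairs of large classes, whose means ran from 50.6 ± 9.09 CPM in TCs to 63.4 ± 47.7 in DC/Mac. Its FB against TC difference passed without PBMCsec library 2 (0.54, adjusted p = 0.0291), and its TC against DC/Mac difference without vehicle library 3 (-0.69, adjusted p = 0.0167). It was less even within them: the FB cluster with Ccl2 and Ptx3 held 256.2 ± 312 CPM (n = 5) and the Serpinb2 and Fosl1 KC cluster 110 ± 38.2 (n = 6).

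The second question was whether PBMCsec changed these genes in any class. It was asked on summed counts per library with edgeR in FBs, KCs, TCs and DC/Mac, in HF cells with 7 libraries, and over all kept cells. No member passed at an adjusted p under 0.05 in any of them, and neither did any other gene (0% of all genes called in each). DESeq2 called no gene in FBs, KCs and TCs, 7 in DC/Mac, 5 in HF cells and 8 over all kept cells, and no member among them. Members with an unadjusted p under 0.05 numbered 2 of 6 in FBs, where 2.51% of 9168 genes reached it, and 1 of 5 in DC/Mac, where 4.67% of 5591 did. There were none among 6 in KCs (0.809% of genes), 4 in TCs (3.78%), 6 in HF cells (3.52%) and 6 over all kept cells (2.54%). In no class did the libraries of both groups separate without overlap for a member, against 2.1% of genes in FBs, 1.25% in KCs, 2.7% in TCs, 2.67% in DC/Mac, 5.12% in HF cells and 1.88% over all kept cells, among genes with at least 30 UMIs.

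Txnip in FBs lay at 580, 622, 396 and 266 CPM in the PBMCsec libraries 1 to 4. It lay at 384, 408, 594 and 571 CPM in the vehicle libraries. The groups overlapped over nearly their whole range, and libraries 1 and 2 were high after PBMCsec and low after vehicle, libraries 3 and 4 the reverse. The log2 difference was -0.03 ± 0.28 (SE, edgeR adjusted p = 0.999, exact permutation p = 0.857, two-sided). Within libraries 1 and 2 alone it was 0.63, and within libraries 3 and 4 alone it was -0.73. Without the Ccl2 and Ptx3 cluster the FB means were 485 ± 166 after PBMCsec and 495 ± 116 CPM after vehicle. The labels do not say what the library numbers stand for.

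In the other classes the Txnip difference did not pass either: it was 0.1 ± 0.3 in KCs, 0.05 ± 0.21 in TCs, -0.01 ± 0.27 in DC/Mac and 0.47 ± 0.34 in HF cells on the log2 scale (edgeR adjusted p from 0.998 to 1). TCs held 461 ± 70.2 CPM after PBMCsec and 461 ± 115 after vehicle. The difference of the effect between FBs and each of KCs, TCs and DC/Mac was tested for all 6 genes by exact permutation. None of the 18 passed after adjustment (smallest adjusted p = 0.343). The smallest p that 4 against 4 libraries allow is 0.0286, too large for 1 of 18 tests to pass alone. Txnrd1 in FBs against KCs was at that p (difference of the effect 0.84). The lack of a pass thus does not show that the effect was alike between classes.

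**Figure D3:**
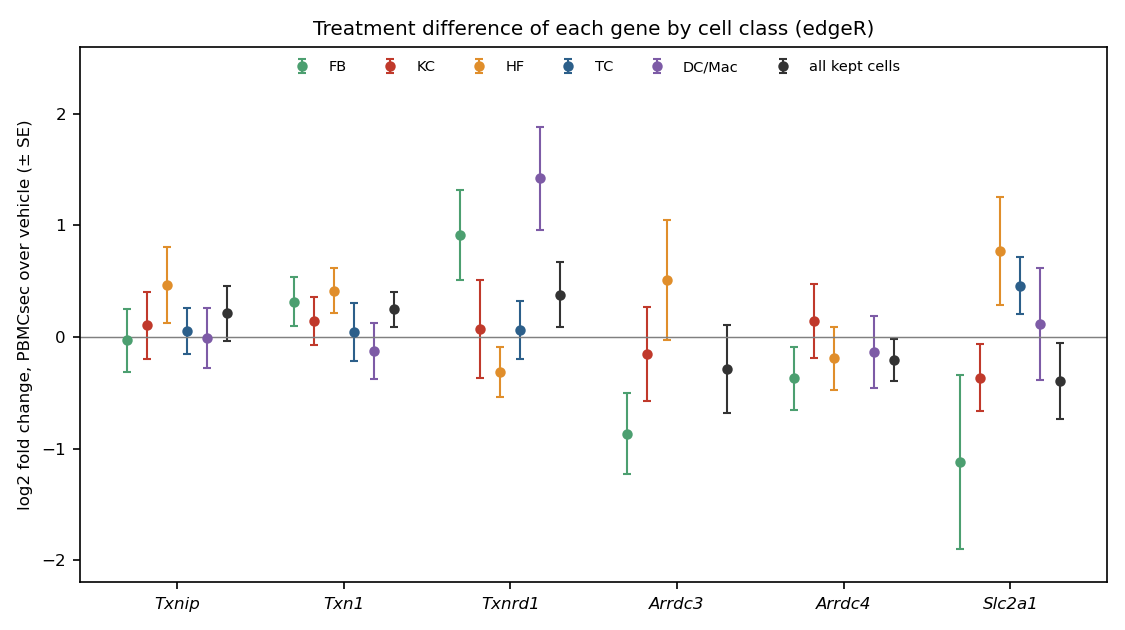
Log2 fold change of PBMCsec over vehicle (vertical axis) with its SE for each gene and cell class, by edgeR. Points above 0 are higher after PBMCsec. Txnip lies within 0.5 of 0 in every class, and Txnrd1 in DC/Mac (1.42) and Slc2a1 in FBs (-1.12) lie farthest out. Arrdc3 and Arrdc4 were too low to be tested in TCs, and Arrdc3 in DC/Mac.

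Txnrd1 in DC/Mac had the largest difference of the members. It lay at 145, 130, 65.3 and 27.5 CPM in the PBMCsec libraries 1 to 4. It lay at 47.6, 34, 26.1 and 31.5 CPM in the vehicle libraries. Of the PBMCsec libraries 3 lay above all vehicle libraries and the fourth lay among them. The log2 difference was 1.42 ± 0.46 (edgeR p = 0.008, adjusted p = 0.895), and the exact permutation p was 0.114. Without a filter on low counts edgeR did call it (1.49, adjusted p = 0.00383), together with 108 other genes. The counts were spread unevenly over cells. In PBMCsec library 1, 28 of 79 cells held a UMI and the top 2 cells held 24 of 106 UMIs, while in PBMCsec library 2 the top 2 of 34 cells held 29 of 42. Immediate early and stress genes, whose summed level is a sign of cell handling, ran from 8394 to 15068 CPM in the PBMCsec libraries and from 9742 to 20179 in the vehicle libraries of the class. The KC markers in these cells summed to 115 to 1409.8 CPM, highest in vehicle library 3. Neutrophil markers, 7 genes, summed lower after PBMCsec without overlap. Of single genes in the class with at least 30 UMIs, 2.67% separated so in either direction. Vehicle libraries 1 to 4 held 198, 382, 101 and 94.5 CPM of the 7 genes, against 82.2, 49.5, 92 and 61.9 after PBMCsec. Csf3r and Mmp9 among them also passed as markers in the C1qb and the Cd207 cluster of DC/Mac, so the sum may not be of neutrophils alone. Among the classes Txnrd1 itself had its highest mean in neutrophils (160 ± 86.1 CPM, n = 4). The part of any of these sums in the result was not tested.

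In FBs Txnrd1 was at 150, 35.8, 80.4 and 42.4 CPM in the PBMCsec libraries 1 to 4. The vehicle libraries lay between 38.4 and 55.6 CPM. Library 1 of PBMCsec stood above the rest, and the log2 difference of 0.91 ± 0.4 had an edgeR p of 0.0413 (adjusted p = 0.999, exact permutation p = 0.371). Without the Ccl2 and Ptx3 cluster that library fell to 110 CPM, and the means were 61.9 ± 34 and 44.2 ± 7.83. In the same library the stress and immediate early genes summed to 16278 CPM, the highest of the 8, whose lowest was 6804. Its part in the result was not tested.

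Arrdc3 in FBs was lower after PBMCsec in the means. The PBMCsec libraries 1 to 4 held 81, 53.6, 56 and 25.9 CPM. The vehicle libraries held 183, 105, 67.6 and 85.4 CPM. The groups overlapped by 1 library, PBMCsec 1 above vehicle 3, and the highest value came from 28 cells. Immediate early and stress genes were highest in PBMCsec library 1 (16278 CPM) and the vehicle libraries 2 (14555) and 1 (13996), the libraries with the highest Arrdc3 of the PBMCsec group and the 2 highest of all. Their part in the result was not tested. The log2 difference was -0.87 ± 0.36 (edgeR p = 0.032, adjusted p = 0.999), with an exact permutation p of 0.0571. The share of FBs with an Arrdc3 UMI had an exact p of 0.229, and of 0.0286, the smallest possible, after thinning to 1000 UMIs. The thinned share was 3.84 ± 2.43% after PBMCsec and 9.89 ± 3.51% after vehicle. That is 1 of 30 shares compared, each of them both before and after thinning, and their p-values were not adjusted. The thinning was a single random draw, and the vehicle libraries 1 and 2 held only 28 and 20 FBs.

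Slc2a1 in FBs spread widest. The PBMCsec libraries 1 to 4 held 41.1, 3.25, 38.4 and 12.2 CPM. The vehicle libraries held 85.3, 210, 21.4 and 18.1 CPM. The highest values were those of the vehicle libraries 1 and 2, with 28 and 20 cells, and the other vehicle libraries lay among the PBMCsec libraries. The log2 difference was -1.12 ± 0.78 (edgeR adjusted p = 0.999, exact permutation p = 0.229). KC markers in these cells, 15 genes of which none was at 0, summed to 141 and 259 CPM in these libraries, against 174 to 577 in the other libraries. Immediate early and stress genes summed to 13996 and 14555 CPM in the vehicle libraries 1 and 2, against 7116 and 6804 in the vehicle libraries 3 and 4. The part of either in the result was not tested. Within libraries 3 and 4 alone the difference was 0.53.

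**Figure D4:**
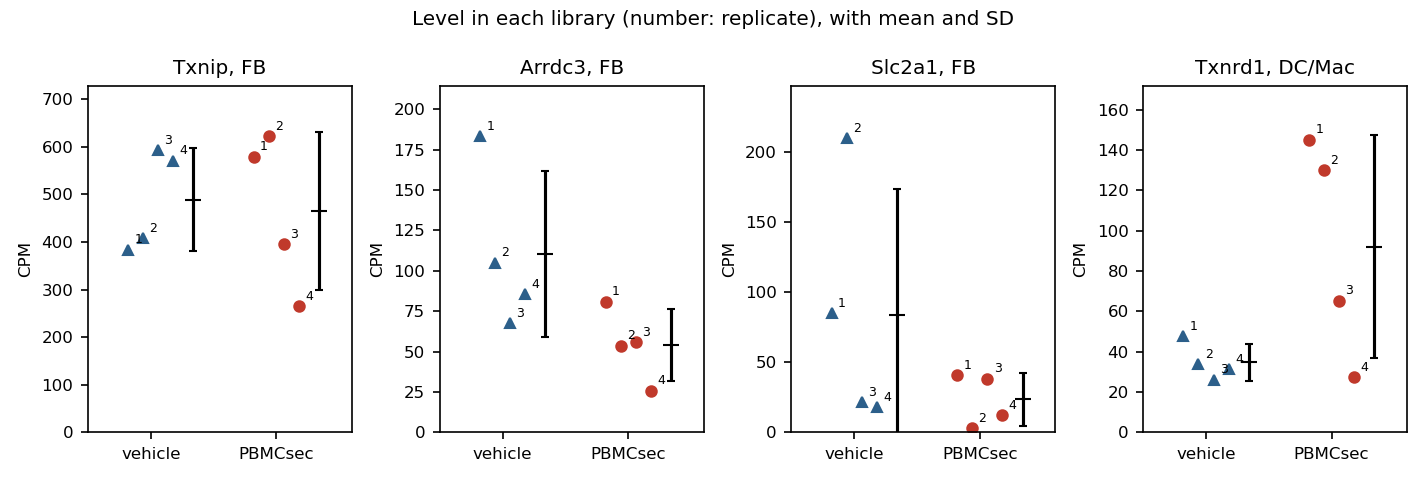
CPM (vertical axes, linear) of 4 gene and class pairs in each library, with the replicate number beside the point and the mean and SD at its right, bars cut at 0. The 2 groups overlap in all 4 panels: Txnip in FBs from 266 to 622 CPM after PBMCsec and from 384 to 594 after vehicle.

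Slc2a1 in KCs was 254 ± 88.8 CPM after PBMCsec and 348 ± 107 after vehicle (log2 difference -0.36 ± 0.3). In TCs it was 86.5 ± 12.8 and 65.8 ± 20.7 (0.46 ± 0.25), and in DC/Mac 62.6 ± 22.2 and 65.7 ± 55.1 (0.12 ± 0.5). All had an edgeR adjusted p of at least 0.998. Txn1 in FBs was 563 ± 116 against 469 ± 58.2 CPM (0.32 ± 0.22). In HF cells it was 487 ± 88.6 against 382 ± 33.8 (0.42 ± 0.2, edgeR p = 0.0626, adjusted p = 1, exact permutation p = 0.171). Arrdc4 in DC/Mac was 50.8 ± 22.6 against 58.9 ± 12.9 (-0.13 ± 0.33). Over all kept cells of a library Txnip was at 389 ± 123 CPM after PBMCsec and 350 ± 58.8 after vehicle. There, fewer cells of a type and less RNA per cell cannot be told apart.

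The other genes of these pathways were taken from 8 lists and read beside the median of all genes tested, which was within 0.03 of 0 on the log2 scale in every class. No gene of any list passed. In FBs the thioredoxin and peroxiredoxin list had a median of 0.28, with 16 of 19 tested genes above 0 and 1 of them, Txnrd1, at an unadjusted p under 0.05. The NRF2 target list, which shares genes with it, had a median of 0.28 with 11 of 15 above 0 and 2 unadjusted p under 0.05. Its highest gene was Hmox1, heme oxygenase (1.99 ± 0.65, edgeR adjusted p = 0.999). Hmox1 stood at 386 CPM in PBMCsec library 1 and at 45.5 to 71.8 in the other PBMCsec libraries, against 27.2 to 55.6 after vehicle.

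For glucose uptake and glycolysis the values in FBs turned on 1 library. The genes of the list summed to 2319, 1635, 1721 and 1856 CPM in the PBMCsec libraries 1 to 4. They summed to 3000 and 6688 CPM in the vehicle libraries 1 and 2, and to 1620 and 1650 in the vehicle libraries 3 and 4. The median difference was -0.5 with 15 of 18 tested genes below 0, and without vehicle library 2, with its 20 FBs, it was -0.01 with 11 of 18 below 0. Phosphoglycerate kinase Pgk1 (-1.74 ± 0.72, edgeR adjusted p = 0.999) was the 1 gene with an unadjusted p under 0.05, and the lactate transporter Slc16a3 was lowest (-2.2 ± 1.11). In DC/Mac the same library, with 15 cells, summed to 10056 CPM against 4456 to 6685 in the others. The median was -0.3 with 13 of 15 below 0, and -0.01 with 9 of 16 below 0 without it. In the test of all libraries 4 genes had an unadjusted p under 0.05: Tpi1 (-0.75), Aldoa (-0.62), Gapdh (-0.46) and Gpi1 (-0.62). In KCs the list was even, with 9 of 18 below 0 and a median of 0.01. In TCs 11 of 15 lay above 0, with a median of 0.14.

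In DC/Mac the NRF2 target list had a median of 0.08 (0.05 to 0.65 leaving out 1 library, highest without vehicle library 4), 5 of 10 genes above 0, and 3 genes with an unadjusted p under 0.05: the ferritin subunits Fth1 (0.81 ± 0.22) and Ftl1 (0.6 ± 0.22), and Txnrd1. By edgeR their adjusted p was 0.68 or above. Hmox1 was the highest gene of the list in DC/Mac (1.54, edgeR adjusted p = 0.9997). Without the filter on low counts edgeR called Slc7a11 (5.09, adjusted p = 3.16e-11), Hmox1 (1.63, adjusted p = 3.00e-05), Fth1 and Txnrd1. Fth1 lay at 8331, 10376, 5075 and 7541 CPM in the PBMCsec libraries 1 to 4. It lay at 3567, 4858, 3799 and 5459 CPM in the vehicle libraries, so that 1 PBMCsec library lay among them. The peroxiredoxin Prdx1 also had an unadjusted p under 0.05 (0.75 ± 0.31, edgeR adjusted p = 1). The NRF2 genes of DC/Mac summed to 14448, 19349, 9812 and 14500 CPM in the PBMCsec libraries 1 to 4. They summed to 7030, 10158, 7760 and 10269 CPM in the vehicle libraries, again with 1 PBMCsec library among them. Over all kept cells the sums ran from 5904 to 9351 CPM after PBMCsec and from 4319 to 5331 after vehicle, without overlap. Of single genes with at least 30 UMIs there, 1.88% separated so in either direction. The list's median over all kept cells was 0.13, with 14 of 18 genes above 0 and none called. Cell type shares enter these sums, and Fth1 is a large part of them, in DC/Mac 8331 of 14448 CPM in PBMCsec library 1. The sums were not tested.

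At the other end of these lists in FBs lay glutathione reductase Gsr (-0.3) for thioredoxin, malic enzyme Me1 (-0.27) for NRF2 and hexokinase Hk2 (0.68) for glycolysis, none of them called. In the remaining lists no gene was called either. Of the alpha-arrestins 4 of 6 were tested in FBs, with Arrdc1 highest (0.33) and Arrdc3 lowest (-0.87). Of the factors that read glucose, Mlxip (MondoA) and Mlx were tested in FBs, at 0.46 and -0.01. The inflammasome list, whose sensor Nlrp3 Txnip can bind, had medians from -0.07 to 0.07 in the 5 large classes, but only 2 of its 6 genes were tested in KCs, TCs and HF cells. In DC/Mac Il1b was highest (0.79), and 1 of 6 genes had an unadjusted p under 0.05. Over all kept cells, where cell type shares enter, the median was 0.53 with 5 of 6 above 0, Nlrp3 highest (1.1) and 1 unadjusted p under 0.05. In FBs it ran from Pycard, the inflammasome adaptor (-0.6), to the cytokine Il18 (0.27). Immediate early and stress genes had a median of -0.13 in FBs, where the heat shock genes Hspa1a (1.67) and Hspa1b (1.55) were highest and the phosphatase Dusp1 (-0.64) lowest, and of 0.58 in HF cells, with 19 of 19 above 0. Without vehicle library 2 the HF median was 1.37, and without PBMCsec library 4 1 gene of the list was called. Hbb-bs, the red blood cell gene tested in FBs, had a log2 difference of 6.22 there, -2.66 in KCs, 5.41 in TCs, -3.03 in DC/Mac and -4.68 in HF cells, none of them called. In each class 1 library stood far above the rest. The red blood cell genes summed to 4025 CPM in PBMCsec library 4 in FBs, against 0 to 42.7 in the others. In TCs PBMCsec library 3 held 3174 CPM, against 3.08 to 287. Vehicle library 4 held 1012 CPM in KCs, against 3.79 to 91.7, and 3627 in HF cells, against 11.2 to 99.4. In DC/Mac vehicle library 3 held 1837 CPM, against 0 to 141.

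**Figure D5:**
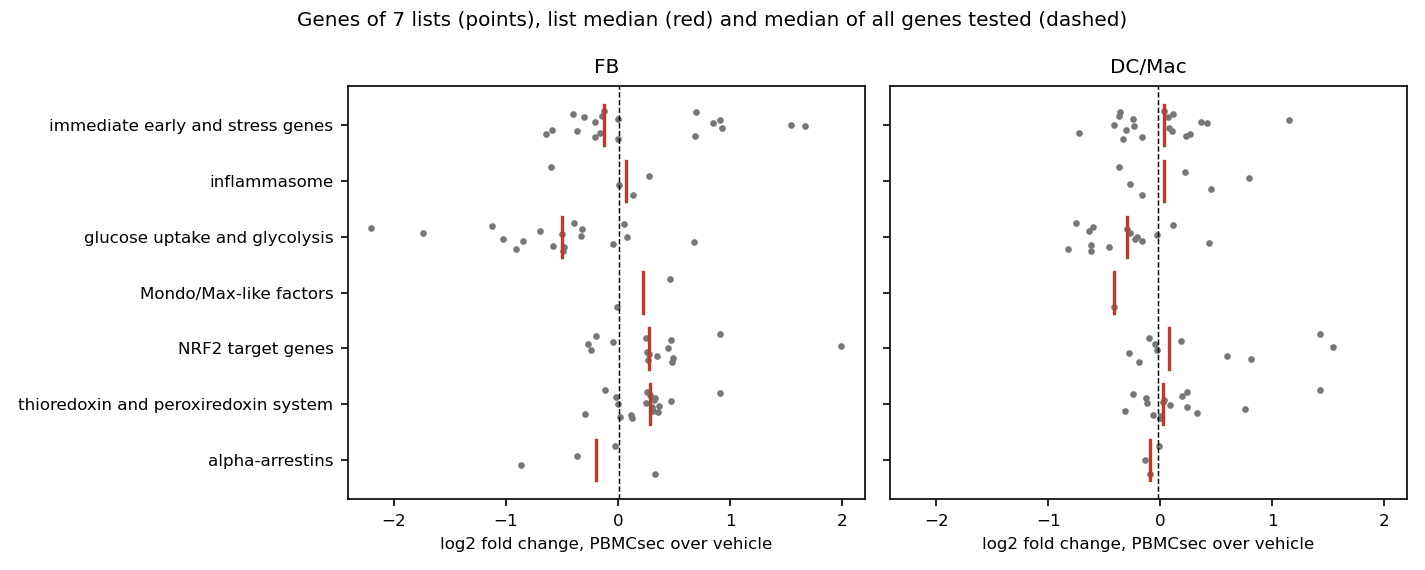
Log2 fold change of PBMCsec over vehicle (horizontal axes) for the tested genes of 7 lists (points) in FBs and in DC/Mac, with each list's median in red and the median of all genes as a dashed line. The glycolysis medians lie at -0.5 in FBs and -0.3 in DC/Mac, both -0.01 without vehicle library 2, and no point passed the test.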

How the data were processed

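Single cells from 8 skin biopsies were sequenced as 10x Genomics 3′ libraries. The deposited counts are UMI counts per gene and barcode, made by the authors with Cell Ranger 3.0.2 on mm10 per the labels (the study's methods name a different Cell Ranger version), and not normalized. Cells with 500 to 4000 genes, under 20000 UMIs and under 5% mitochondrial counts were kept, and 3 genes that the study names as technical noise (Gm42418, Gm17056 and Gm26917) were left out. The cells were integrated and clustered with Seurat 5.3.0 (2000 variable genes, 30 dimensions, resolution 1), with the members and the list genes, 98 genes in all, held out. A cluster was named from at least 3 detected markers. Scrublet marked 22 cells, which were kept in the main results, and removing the top 5% of scores was an alternative.

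Counts were summed per library and class (at least 10 cells). Treatment was tested with edgeR 4.0.16 (quasi-likelihood, TMM, filter on low counts, Benjamini-Hochberg over all genes), and by two-sided exact permutation on log2 CPM with a prior count of 2 (scipy 1.17.1). The pairs of classes and the HF test were added after the data were seen, as were the FBs without 1 cluster and the lists without each library. Named genes were every member, the 5 genes most like Txnip and the most like gene of each other member, and, of each list without a call, the highest and the lowest gene in FBs. Other list genes, among them those with an unadjusted p under 0.05, were picked after their values were seen, as were the clusters described. The edgeR and exact tests were tested on simulated data. The members and lists were chosen with earlier results of these data known. Nothing in the labels says that libraries came from separate animals, so the p-values measure the spread between these samples. Same-numbered libraries of the 2 groups deviated together with r above 0 for every number in TCs (0.13 to 0.4) and DC/Mac (0.09 to 0.32). The same held in HF cells (0.11 to 0.4, numbers 2 to 4) and over all kept cells (0.29 to 0.57). In FBs (-0.03 to 0.16) and KCs (-0.06 to 0.39) r was below 0 for number 2. Alternatives were no filter on low counts, DESeq2 1.42.0, other scalings, the replicate number as a block, numbers 1 and 2 or 3 and 4 alone, leaving out each library, a mitochondrial limit of 10%, a prior count of 0.5, at least 20 cells, and thinning.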

Additional observations from a re-analysis of the deposited data

Results flagged for a closer look

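In 54 groups of 4 libraries the highest or lowest library was compared with its neighbours by Dixon's ratio, and 5 stood apart, where chance gives about 1 in 20. Arrdc4 in FBs was at 48.54 CPM in vehicle library 3, from 125 UMIs, and at 24.7 to 27.2 in the other vehicle libraries. Arrdc4 in KCs was at 16.48 CPM in PBMCsec library 3, the others lying at 32.6 to 35.6. Arrdc3 in DC/Mac was at 50.96 CPM in vehicle library 2, from 6 UMIs in 15 cells, against 8.16 to 11.9. Arrdc3 in TCs was at 7.116 CPM in PBMCsec library 2, from 4 UMIs, against 13.3 to 14.3. Txnrd1 in HF cells was at 40.82 CPM in PBMCsec library 1, against 53.7 to 54.4.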

How the results depend on the processing

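Of 656 recomputed treatment values 601 kept direction and side of the threshold, as did 426 of 476 differences between classes. No member was called under any treatment alternative but 1, Txnrd1 in DC/Mac with no filter on low counts. That setting also called 4 red blood cell genes in TCs, and in DC/Mac 1 thioredoxin, 4 NRF2, 1 immediate early and 3 red blood cell genes. The causes of the changes below were not tested. With the replicate number as a block no member was called in 33 results (smallest adjusted p = 0.342), and Txnrd1 in KCs (-0.21) and Arrdc3 in HF cells (-0.0062) turned sign. The block raised the genes called from 0 to 6 in DC/Mac and from 0 to 5 in TCs.

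Treatment differences (log2) turned sign as follows. With libraries 1 and 2 alone: Txnip 0.63 in FBs and 0.13 in DC/Mac, Arrdc3 0.041 in KCs, Arrdc4 0.066 and Slc2a1 -0.42 in DC/Mac, and Txnrd1 0.049 in HF cells. With libraries 3 and 4 alone: Slc2a1 0.53 in FBs, Txnrd1 -0.12 in KCs and -0.29 in TCs, Txnip -0.023 and Txn1 -0.078 in TCs, and Txnip -0.0999 over all kept cells. Txnip in DC/Mac was 0.068 with no filter, 0.025 by DESeq2, 0.0045 with RLE factors, 0.15 without high doublet scores and 0.19 at a mitochondrial limit of 10%. That limit gave Txnip -0.075 in KCs and Txn1 0.13 in DC/Mac. Slc2a1 in DC/Mac was -0.17 without high doublet scores. Library totals gave -0.0087 for Txnip and -0.011 for Txn1 in TCs, and every deposited barcode 0.053 for Arrdc4.

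Shares of cells with a UMI, thinned, turned sign for Txnip in KCs (0.703 points) and TCs (1.08), Txn1 in KCs (12.03), HF cells (4.3), TCs (-0.537) and DC/Mac (0.985), Txnrd1 in HF cells (0.105), Arrdc3 in TCs (0.626) and Slc2a1 in TCs (-0.454). Between classes, sign-flip means turned for Arrdc4 FB against KC (-0.012), Txnrd1 FB against DC/Mac (0.075), KC against TC (-0.071) and HF against DC/Mac (0.0796), and Txn1 TC against DC/Mac (0.15). Between neighbours, a minimum of 20 cells gave Txnrd1 FB minus DC/Mac -0.0084 and TC minus KC -0.021, Arrdc3 KC minus neutrophil 1.9 and DC/Mac minus TC -0.24, and Arrdc4 KC minus FB -0.13. A prior count of 0.5 gave 0.18 and -0.0403 for the same Arrdc3 pairs.

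Leaving out 1 library at a time, these treatment differences spanned 0: Txnip -0.194 to 0.151 in FBs, -0.134 to 0.359 in KCs, -0.0444 to 0.227 in TCs and -0.168 to 0.157 in DC/Mac; Txn1 -0.214 to 0.209 in TCs and -0.275 to 0.139 in DC/Mac; Txnrd1 -0.476 to 0.393 in KCs and -0.0552 to 0.181 in TCs; Arrdc3 -0.508 to 0.119 in KCs; Arrdc4 -0.489 to 0.00893 in FBs and -0.449 to 0.0195 in DC/Mac; Slc2a1 -0.257 to 0.903 in DC/Mac. Neighbour differences spanned 0 for Txnip FB minus TC (-0.0644 to 0.131) and melanocyte minus FB (-0.0883 to 0.42), Txn1 FB minus TC (-0.00475 to 0.163) and HF minus DC/Mac (-0.153 to 0.0846), and Txnrd1 HF minus FB (-0.21 to 0.247), DC/Mac minus TC (-0.12 to 0.198), TC minus KC (-0.0615 to 0.166), neutrophil minus EC (-0.185 to 1.53) and FB minus DC/Mac (-0.00992 to 0.342). They did so for Arrdc3 DC/Mac minus TC (-0.217 to 0.23), KC minus neutrophil (-1.27 to 1.05), EC minus HF (-0.0658 to 1.1) and FB minus EC (-0.717 to 0.638), Arrdc4 KC minus FB (-0.0991 to 0.138) and EC minus KC (-0.023 to 0.472), and Slc2a1 neutrophil minus HF (-0.114 to 0.91), EC minus melanocyte (-1.23 to 0.906), DC/Mac minus EC (-0.195 to 0.373) and melanocyte minus FB (-0.225 to 1.65). Class pairs did so for Arrdc4 FB against KC (-0.11 to 0.337), Arrdc3 KC against HF (-0.151 to 0.13), Txn1 KC against HF (-0.11 to 0.0119) and TC against DC/Mac (-0.127 to 0.0211), and Txnrd1 FB against HF (-0.14 to 0.454), FB against DC/Mac (-0.144 to 0.25), KC against HF (-0.2995 to 0.162) and HF against DC/Mac (-0.577 to 0.221).

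Depth limits the rare classes and the low genes most: Arrdc3 and Arrdc4 rest on 36 to 53 UMIs where they were not tested, and the vehicle libraries 1 and 2 on few cells.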

Other observations

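Cells with 5 to 10% mitochondrial counts, which the limit left out, were given to the classes by correlation and set beside the kept cells of the same library. None of 30 comparisons over the 6 genes and 5 large classes passed after adjustment (exact sign-flip test, smallest adjusted p = 0.117). Arrdc3 in KCs was higher in the left-out cells in 8 of 8 libraries (log2 difference 1.04), and Slc2a1 in TCs was higher in 0 of 8 (-0.76). Both had a sign-flip p of 0.00781, the smallest that 8 libraries allow, which adjusted to 0.117. The test could thus not pass them, and it does not show that the left-out cells were alike.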
